A study of Homo sapiens with 18 samples.

Results

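The transcripts described here encode the aminoacyl-tRNA synthetases, measured in 3 human melanoma cell lines treated with A-485, an inhibitor of the acetyltransferase activity of p300 and CBP, or with its solvent DMSO. Members were the genes whose symbol has a single letter for the amino acid followed by ARS and 1, 2, A or B, together with EPRS1. This gave 32 genes of the 19775 with a named probe set, and all 32 passed the filter on dim signals that left 14130 genes for the tests. The 17 cytosolic genes were AARS1, CARS1, EPRS1, FARSA, FARSB, GARS1, HARS1, IARS1, KARS1, LARS1, NARS1, RARS1, SARS1, TARS1, VARS1, WARS1 and YARS1. The 15 genes with the suffix 2, which encode mitochondrial enzymes, were AARS2, CARS2, EARS2, FARS2, HARS2, IARS2, LARS2, MARS2, NARS2, PARS2, RARS2, SARS2, VARS2, WARS2 and YARS2. MARS1, QARS1 and TARS2 were only on probe sets that carry several symbols and were not analysed here.

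Aminoacyl-tRNA synthetases join each amino acid to its tRNA, the step that gives the genetic code its meaning during translation. Most amino acids have separate nuclear genes for the enzyme of the cytosol and that of the mitochondrion, while GARS1 and KARS1 each encode the enzyme of both compartments. Several cytosolic enzymes, among them those of EPRS1, IARS1, LARS1, KARS1 and RARS1, sit in the multisynthetase complex with scaffold proteins, and FARSA and FARSB encode the subunits of 1 enzyme. In mammalian cells many cytosolic synthetase genes are targets of ATF4, the transcription factor of the amino acid response.

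The lines were SKMEL5, WM2664 and A375, grown in serum-containing RPMI medium. Cells of each line received A-485 at a labelled concentration of 3.0 mM, a unit that could not be checked, or DMSO, and were collected at 6 h or 24 h. Each line and time had 1 A-485 array and 2 DMSO arrays, 18 in all. The study is described as comparing 2 sensitive lines with 1 resistant line, and the labels do not say which line is which. RNA was read on Affymetrix HG-U133 Plus 2.0 arrays, on which short probes near the 3′ end of a transcript form a probe set with 1 intensity per array. Nothing says whether the DMSO arrays came from separate cultures, so the p-values reflect the spread of these arrays alone, which may be technical.

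Values below are intensities after quantile normalization between arrays (scaled intensity), and the number of arrays limits their precision. Differences are on the log2 scale with the SE of a limma fit, which takes the spread of the single A-485 arrays from the DMSO pairs. Calls were made at 0.05 after Benjamini-Hochberg adjustment over all 14130 genes. Correlations between replicate DMSO arrays lay between 0.990 and 0.994. Of 8 melanocyte genes fixed as markers, 7 were on the array, and all 7 lay above the floor of 32 on every SKMEL5 and WM2664 array. In A375 only 3 of the 7 did, and their summed intensity was 392.2 to 1943, against 37600 to 48740 in SKMEL5 and 18280 to 34750 in WM2664. Epithelial markers summed to 4886 to 7704 in A375, against 298.8 to 851.1 in SKMEL5 and 200.1 to 340.4 in WM2664. The 6 epithelial markers did not move together: in A375, 3 lay above the floor on every array and 3 at the floor on every array. In SKMEL5 and WM2664, 1 lay above the floor on every array. Fibroblast markers summed to 288.3 to 520.7 in A375, against 4012 to 5419 in SKMEL5 and 2962 to 5693 in WM2664. In each line 2 of the 6 fibroblast markers lay at the floor on every array. Of the 4 leukocyte markers on the array, all lay at the floor on every SKMEL5 and WM2664 array, and 1 lay above it on every A375 array.

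Before the results, 3 DMSO arrays stood apart by signal at genes that are high only in another line. Replicate 1 of WM2664 DMSO at 6 h had a median of 72.8 over 7 genes high in SKMEL5, and the other WM2664 arrays had -2.39 to 23.4. Replicate 1 of A375 DMSO at 6 h had 43 over 13 genes high in SKMEL5, and the other A375 arrays had 8.48 to 15.5. Replicate 2 of WM2664 DMSO at 24 h had 32.2 over 11 genes high in A375, and the other WM2664 arrays had 2.78 to 18.1. Each count of called genes below is also given without these 3 arrays where it changed by more than 1.5 times.

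At 24 h, transcripts of cytosolic synthetases were lower in A-485-treated SKMEL5 and WM2664 cells than in their DMSO controls, and none of them was called in A375. In SKMEL5, 12 of the 17 cytosolic members were lower and none was higher, where 15.1% of all genes tested were lower, 20.1% higher and 35.3% called in either direction. In WM2664, 10 were lower and 1 was higher, where 14.6% of all genes were lower, 17.6% higher and 32.2% called. In A375, limma called 0 of the 17, against 9.05% of all genes higher, 8.39% lower and 17.4% called, and 3 had an unadjusted p under 0.05. The A375 DMSO arrays of 24 h were apart at some members, which limits the A375 differences. They read 1646 and 2060 for YARS1, 685 and 852 for WARS1, and 3332 and 4052 for GARS1. At others they were close, as for KARS1 (7768 and 7718) and RARS1 (2914 and 2868). Over the 17 genes the A-485 minus DMSO difference had a median of -0.44 in SKMEL5, -0.42 in WM2664 and 0.06 in A375, and the median of all genes was 0 in each line. In RNA of whole cultures, fewer cells carrying these transcripts and less of them per cell cannot be told apart.

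The 10 cytosolic genes lower in both SKMEL5 and WM2664 were AARS1, GARS1, IARS1, LARS1, NARS1, SARS1, TARS1, VARS1, WARS1 and YARS1. They made up 58.8% of the 17 cytosolic members, against 8.37% of all genes lower in both lines. The WM2664 calls of SARS1 (-0.23) and TARS1 (-0.30) were lost at a floor of 16 or 64, without the filter on dim signals and with a replicate block. A dimmer SARS1 probe set had larger differences, -1.247 in SKMEL5 and -0.744 in WM2664, with 0.053 in A375. CARS1 and FARSB were called in SKMEL5 only, at -0.51 ± 0.12 and -0.95 ± 0.19, with -0.23 and -0.57 in WM2664. EPRS1, KARS1, FARSA and RARS1 were called in no line at 24 h, with differences between -0.26 and 0.10. Without the 3 DMSO arrays named above, 6 cytosolic genes were called lower in SKMEL5 and 3 in WM2664, while the medians were -0.44 and -0.43, with 15 and 14 of the 17 values negative. With the values left unscaled, 3 members of either class were called in SKMEL5 and 0 in WM2664, with cytosolic medians of -0.57 and -0.11, against medians of 0 and 0.18 over all genes.

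On the brightest probe set of each gene, AARS1, the alanyl-tRNA synthetase, had the largest difference of the cytosolic members in both lines. Its scaled intensity in SKMEL5 was 678 on the A-485 array, against 1394 and 1306 on the DMSO arrays. In WM2664 it was 605 with A-485, against 1381 and 1300 with DMSO. In A375 it was 1521 with A-485, against 1386 and 1605 with DMSO. The A-485 arrays of SKMEL5 and WM2664 thus lay below both of their DMSO arrays, and that of A375 between its pair. A single array often lies outside a pair: at 24 h, 37.4% of all genes in SKMEL5, 38.4% in WM2664 and 36.6% in A375 were below both DMSO arrays, and 45.4%, 45.1% and 44% were above both, so this order is a description and not a test. The differences were -0.99 ± 0.09 in SKMEL5 (adjusted p = 0.000218), -1.15 ± 0.09 in WM2664 (adjusted p = 0.000134) and 0.03 ± 0.09 in A375 (adjusted p = 1).

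YARS1, the tyrosyl-tRNA synthetase, likewise lay below both DMSO arrays in SKMEL5 and WM2664. It read 1651 with A-485, against 2753 and 2683 with DMSO, in SKMEL5. It read 1073 with A-485, against 1826 and 1698 with DMSO, in WM2664. In A375 the A-485 array was the highest of the trio, with 2266, against 1646 and 2060 with DMSO. YARS1 changed by -0.72 ± 0.12 in SKMEL5 (adjusted p = 0.00278) and by -0.71 ± 0.12 in WM2664 (adjusted p = 0.00316), and the A375 difference was 0.30 ± 0.12 (adjusted p = 0.14). The WM2664 call was lost without the 3 DMSO arrays (adjusted p = 0.0529), and with a dim second probe set in place of the first, whose difference was -0.11 (adjusted p = 0.903).

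WARS1, the tryptophanyl-tRNA synthetase, is also known as an interferon-inducible gene. In SKMEL5 it was 2431 with A-485, against 4226 and 4029 with DMSO. In WM2664 it was 1122 with A-485, against 1714 and 1615 with DMSO, and in A375 894 with A-485, against 685 and 852 with DMSO. The A-485 array lay below both DMSO arrays in SKMEL5 and WM2664 and above both in A375. The differences were -0.76 ± 0.12 in SKMEL5 (adjusted p = 0.00205), -0.57 ± 0.12 in WM2664 (adjusted p = 0.0086) and 0.23 ± 0.12 in A375 (adjusted p = 0.267). A second WARS1 probe set gave -0.92, -0.42 and 0.02 in the same lines. The WM2664 call was lost without the 3 DMSO arrays, at -0.61 (adjusted p = 0.085).

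GARS1, the glycyl-tRNA synthetase of both compartments, moved with the cytosolic group. It read 5682 with A-485, against 7734 and 7768 with DMSO, in SKMEL5. It read 3366 with A-485, against 4781 and 4714 with DMSO, in WM2664, and 4334 with A-485, against 3332 and 4052 with DMSO, in A375. The A-485 array was below both DMSO arrays in SKMEL5 and WM2664 and above both in A375. The differences were -0.45 ± 0.10 (adjusted p = 0.0114), -0.50 ± 0.10 (adjusted p = 0.00787) and 0.24 ± 0.10 (adjusted p = 0.167) in SKMEL5, WM2664 and A375, and without the 3 DMSO arrays the SKMEL5 call was lost at adjusted p = 0.0807, as was that of WM2664.

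KARS1, the lysyl-tRNA synthetase, is likewise 1 gene for both compartments, and it was not called. It read 3957 with A-485, against 4660 and 3941 with DMSO, in SKMEL5. It read 4410 with A-485, against 4826 and 4939 with DMSO, in WM2664, and 7020 with A-485, against 7768 and 7718 with DMSO, in A375. The A-485 array was below both DMSO arrays in WM2664 and A375 and between them in SKMEL5, and the differences ran from -0.15 to -0.12 with an SE of 0.09. EPRS1, the bifunctional glutamyl-prolyl-tRNA synthetase, had differences of -0.10, -0.09 and 0.04 with an SE of 0.12. Its A-485 arrays read 1549 in SKMEL5, 2358 in WM2664 and 2515 in A375. Its DMSO arrays read 1666 and 1657 in SKMEL5, 2256 and 2810 in WM2664, and 2401 and 2492 in A375.

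VARS1 and FARSB completed the 4 cytosolic members with the largest mean decrease over the lines. VARS1, the valyl-tRNA synthetase, read 376 with A-485, against 694 and 560 with DMSO, in SKMEL5, and 274 with A-485, against 463 and 403 with DMSO, in WM2664. In A375 VARS1 read 635 with A-485, against 724 and 696 with DMSO, so that its A-485 array was below both DMSO arrays in all 3 lines. FARSB, the beta subunit of phenylalanyl-tRNA synthetase, read 628 with A-485, against 1158 and 1273 with DMSO, in SKMEL5. It read 779 with A-485, against 1096 and 1223 with DMSO, in WM2664, and 1164 with A-485, against 1124 and 1429 with DMSO, in A375. The mean differences over the 3 lines were -0.52 ± 0.07 for VARS1 (adjusted p = 0.000964) and -0.55 ± 0.11 for FARSB (adjusted p = 0.00476). FARSB no longer passed the test without the SKMEL5 A-485 array, with -0.35 (adjusted p = 0.0841). A dim second VARS1 probe set differed in sign in WM2664, and the mean of both sets was not called (-0.33, adjusted p = 0.136).

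HARS1, the histidyl-tRNA synthetase, was the cytosolic member that rose at 24 h. In WM2664 it read 936 with A-485, against 616 and 654 with DMSO, and the difference was 0.56 ± 0.06 (adjusted p = 0.00057). In SKMEL5 it read 1041 with A-485, against 948 and 877 with DMSO, and in A375 2190 with A-485, against 2152 and 2059 with DMSO. The A-485 array was above both DMSO arrays in each line, and the mean difference was 0.27 ± 0.04 (adjusted p = 0.000777). Without the WM2664 A-485 array it was 0.12 and not called (adjusted p = 0.0687).

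Averaged over the 3 lines at 24 h, 12 cytosolic members were lower and 1 was higher, against 20.5% of all genes lower, 26.0% higher and 46.5% called. That count of 13 was 4 without the SKMEL5 A-485 array, 5 without the WM2664 A-485 array and 1 in an additive fit of line and treatment, whose residuals hold the differences between lines.

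**Figure D1:**
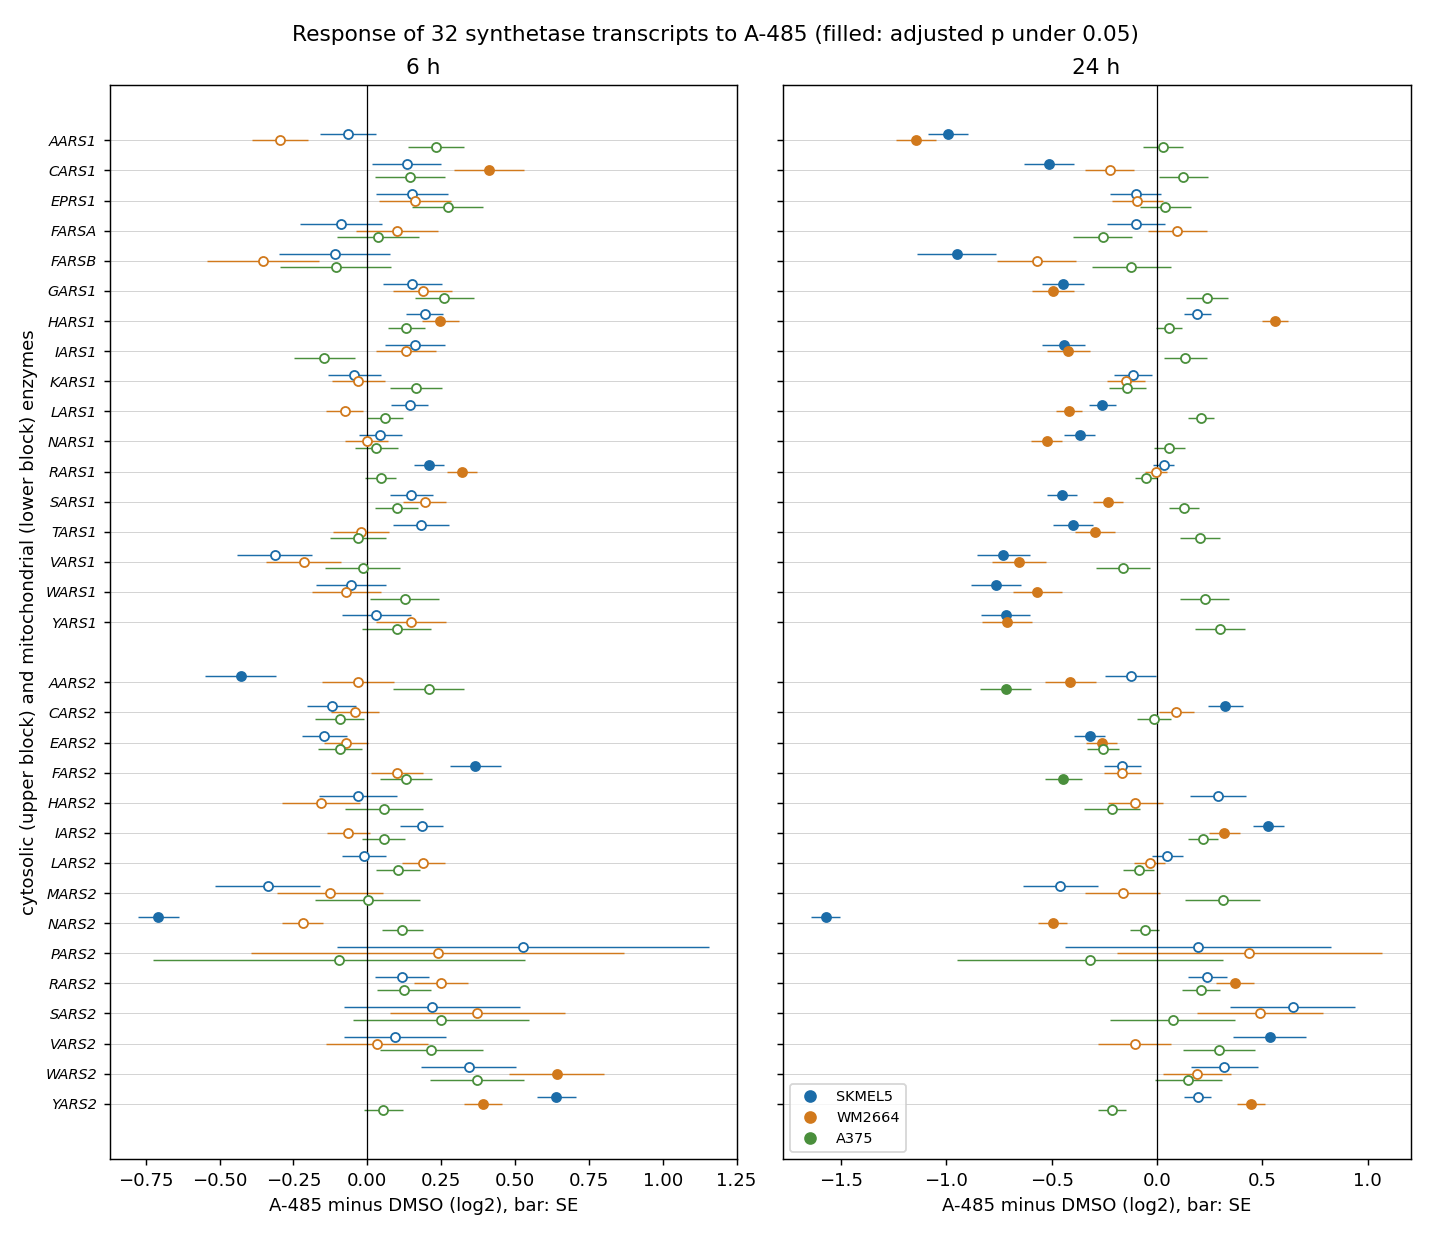
A-485 minus DMSO difference (log2, bar: SE) of each synthetase transcript in each line at 6 h and 24 h, with cytosolic members above and mitochondrial ones below; filled points passed the test. At 24 h, 10 cytosolic genes are filled left of 0 in both SKMEL5 and WM2664, and none is filled in A375.

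Short windows around 1 motif in the promoters of cytosolic members are shown because the motif is known from the amino acid response. RefSeq promoters on GRCh38.p14, from 250 bases before to 50 bases after a transcript start of a gene, were matched to 27 of the 32 members, 14 cytosolic and 13 mitochondrial. They were searched on both strands for TGATGCAA, the core of the composite element that ATF4 is known to bind with a C/EBP partner. The motif, read as TTGCATCA on the opposite strand, was in the promoters of 5 of the 14 cytosolic members and of 0 of the 13 mitochondrial members. A gene can have several promoters. Counted by promoter, it was in 5 of the 36 of the members and in 304 of all 35116 (0.866%). The 30-base windows run 5′ to 3′ on the gene's strand with the motif in capitals.
AARS1 (chr16:70289675-70289704, minus strand): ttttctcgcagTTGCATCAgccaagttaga
CARS1 (chr11:3057407-3057436, minus strand): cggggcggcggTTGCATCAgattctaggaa
IARS1 (chr9:92293692-92293721, minus strand): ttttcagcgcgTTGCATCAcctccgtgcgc
NARS1 (chr18:57621804-57621833, minus strand): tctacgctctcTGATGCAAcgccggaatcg
TARS1 (chr5:33440956-33440985, plus strand): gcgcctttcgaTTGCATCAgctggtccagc
The motif began 187 bases before the transcript start in AARS1, within 15 bases of the transcript start in the others, and was read in the opposite orientation only in NARS1. For TARS1 that transcript start lies inside the gene, whose first base is 33440696. In the same promoters the E-box CACGTG, a palindrome known as a MYC and MAX site, was present for 4 members, IARS1, CARS2, EARS2 and MARS2. Counted by promoter, it was in 5 of the 36 of the members and in 7.26% of all promoters. Of the 14 cytosolic members with a promoter, 9 were called lower in SKMEL5 at 24 h, among them all 5 with the motif, and 7 in WM2664, among them 4 of the 5, without CARS1. A match is a description of these letters, and binding was not measured.

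The mitochondrial members did not share a direction at 24 h. In SKMEL5, 3 of the 15 were higher (CARS2, IARS2 and VARS2) and 2 were lower (NARS2 and EARS2), and their median difference was 0.20. VARS2 was 0.30 and not called without replicate 2 of SKMEL5 DMSO at 24 h. Its call was also lost at a floor of 16 or 64, without the filter on dim signals, and when any DMSO array of another group was left out. In WM2664, 3 were higher (IARS2, RARS2 and YARS2) and 3 were lower (NARS2, EARS2 and AARS2), with a median of -0.03. Without the 3 DMSO arrays, IARS2 (0.31), RARS2 (0.29) and AARS2 (-0.47) were no longer called in WM2664. In A375, AARS2 and FARS2 were lower and none was higher, with a median of -0.06. The shares of the 15 called were 33.3% in SKMEL5, 40% in WM2664 and 13.3% in A375, near the 35.3%, 32.2% and 17.4% of all genes. Of the 15, NARS2 and EARS2 (13.3%) were lower in both SKMEL5 and WM2664, and IARS2 was higher in both, where 10.7% of all genes were higher in both. The difference between the cytosolic and the mitochondrial members was not tested as such.

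NARS2, the mitochondrial asparaginyl-tRNA synthetase, had the largest decrease of any member in 1 line. In SKMEL5 at 24 h it read 402 with A-485, against 1214 and 1179 with DMSO. In WM2664 it read 481 with A-485, against 688 and 666 with DMSO. In A375 it read 592 with A-485, against 593 and 639 with DMSO, just under the lower DMSO array. The differences were -1.57 ± 0.07 in SKMEL5 (adjusted p = 4.78e-06), -0.49 ± 0.07 in WM2664 (adjusted p = 0.00146) and -0.06 ± 0.07 in A375 (adjusted p = 0.724). The SKMEL5 call held under every alternative run.

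AARS2 and FARS2, the mitochondrial alanyl- and phenylalanyl-tRNA synthetases, were the 2 members called in A375. AARS2 read 123 with A-485, against 216 and 188 with DMSO, in A375, a difference of -0.72 ± 0.12 (adjusted p = 0.00669). It read 191 with A-485, against 265 and 243 with DMSO, in WM2664, and 187 with A-485, against 212 and 195 with DMSO, in SKMEL5, so that all 3 A-485 arrays were below both of their DMSO arrays. A dimmer AARS2 probe set was above the floor on only 15 arrays. It gave 0 in A375 at 24 h, the value that arrays at the floor give, so it cannot show whether AARS2 changed there. The mean of both sets, which includes that 0, was not called in A375 (adjusted p = 0.511). FARS2 read 215 with A-485, against 293 and 293 with DMSO, in A375, a difference of -0.45 ± 0.09 (adjusted p = 0.0127). Without the 3 DMSO arrays FARS2 missed the threshold (adjusted p = 0.0523), and without replicate 2 of A375 DMSO at 24 h the number of members called in A375 was 8 in place of 2. In SKMEL5 FARS2 read 323 with A-485, against 355 and 371 with DMSO, and in WM2664 220 with A-485, against 254 and 240 with DMSO.

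EARS2, the mitochondrial glutamyl-tRNA synthetase, was called lower in SKMEL5 (-0.32 ± 0.07) and WM2664 (-0.26 ± 0.07). It read 185 with A-485, against 231 and 231 with DMSO, in SKMEL5, and 185 with A-485, against 219 and 226 with DMSO, in WM2664. In A375 EARS2 read 380 with A-485, against 449 and 460 with DMSO. The A-485 array was below both DMSO arrays in each line, and the mean difference was -0.28 ± 0.04 (adjusted p = 0.00142). The WM2664 call was lost without either WM2664 DMSO array of 24 h (adjusted p = 0.0604 and 0.0993), and the mean of the 4 probe sets was -0.04 there (adjusted p = 0.993), a dimmer set giving 0.68.

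IARS2, the mitochondrial isoleucyl-tRNA synthetase, rose. At 24 h it read 3713 with A-485, against 2581 and 2571 with DMSO, in SKMEL5. It read 4458 with A-485, against 3585 and 3563 with DMSO, in WM2664, and 3867 with A-485, against 3285 and 3366 with DMSO, in A375. Every A-485 array was above both of its DMSO arrays, and the mean difference was 0.35 ± 0.04 (adjusted p = 0.000393). RARS2, the mitochondrial arginyl-tRNA synthetase, was above both DMSO arrays in every line too, with a mean difference of 0.27 ± 0.05 (adjusted p = 0.00429). It read 724 with A-485, against 636 and 592 with DMSO, in SKMEL5, 1078 with A-485, against 881 and 791 with DMSO, in WM2664, and 659 with A-485, against 548 and 592 with DMSO, in A375.

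Over the 3 lines at 24 h, 3 mitochondrial members were higher (IARS2, RARS2 and YARS2) and 4 were lower (NARS2, AARS2, EARS2 and FARS2). These 7 are 46.7% of the 15, the level of all genes (46.5%). The FARS2 mean was -0.17 without the A375 A-485 array (adjusted p = 0.0652). The YARS2 call (0.14 ± 0.04, adjusted p = 0.0179) was lost without the SKMEL5 A-485 array (0.12, adjusted p = 0.0948) or the WM2664 A-485 array (-0.01, adjusted p = 0.93). PARS2, the mitochondrial prolyl-tRNA synthetase, lay at 24 to 109 on all arrays and above the floor on 16 of 18, and its differences had an SE of 0.63, so that no difference was detectable at this signal. HARS2, LARS2, MARS2, SARS2 and WARS2 were not called in any line at 24 h.

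**Figure D2:**
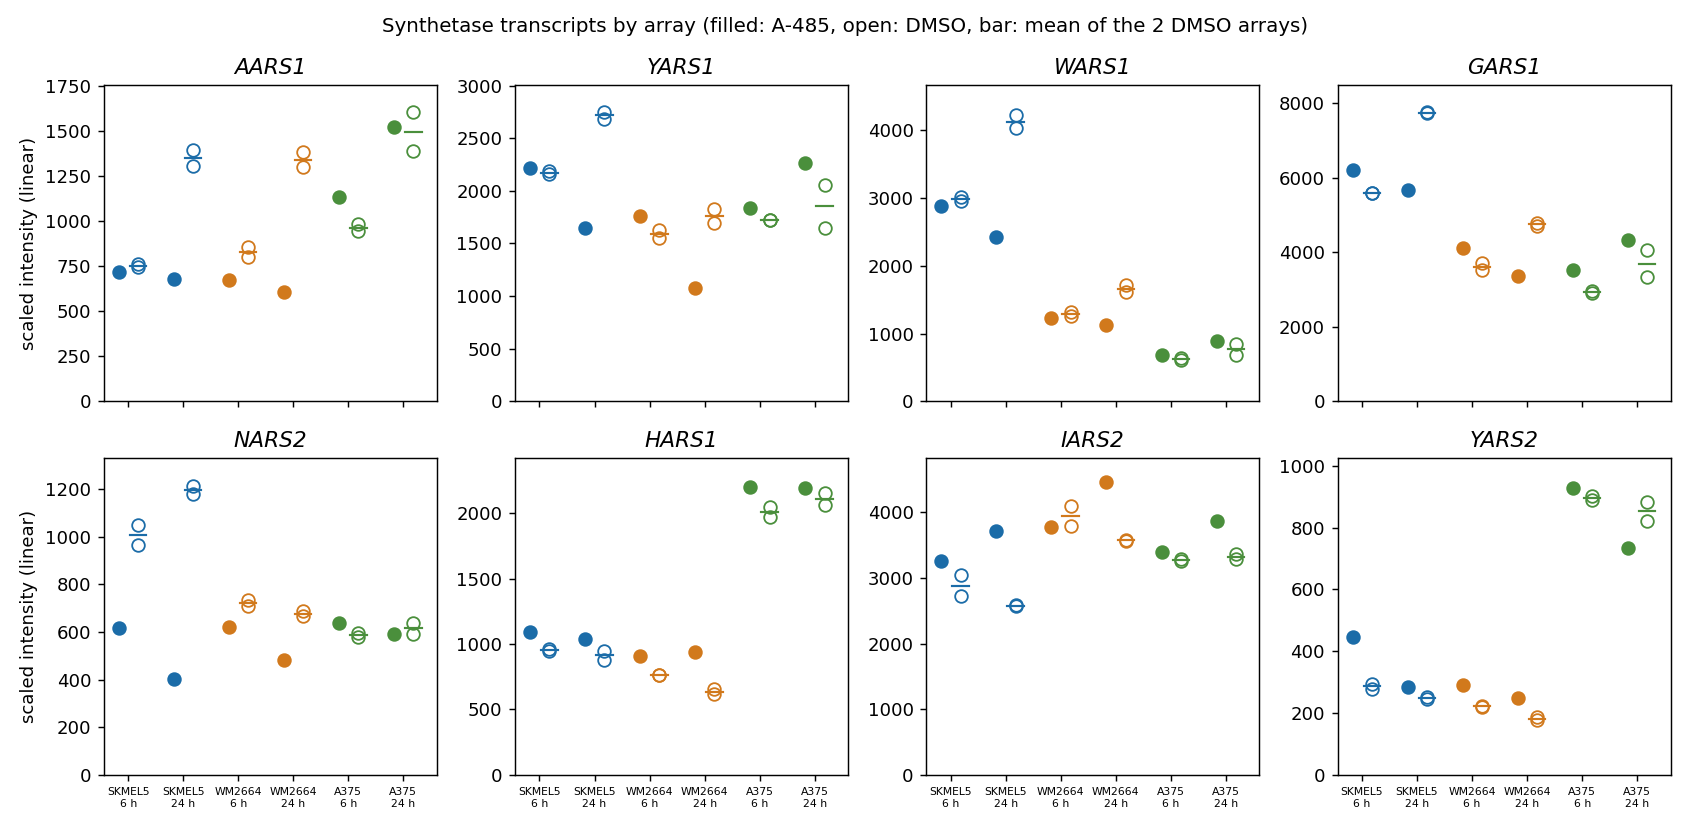
Scaled intensity (linear) of 8 synthetase transcripts on every array, by line and time, with the filled A-485 point left of the open DMSO points and a bar at the mean of the DMSO arrays; each axis starts at 0. AARS1, YARS1, WARS1 and NARS2 lie below both DMSO arrays at 24 h in SKMEL5 and WM2664, and IARS2 lies above both in all 3 lines.

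At 6 h few members were called. In SKMEL5, 3 of the 32 were higher and 2 were lower, against 12.5% and 9.33% of all genes and 21.8% called. In WM2664, 5 were higher and none was lower, against 14.8% and 10.7% of all genes and 25.5% called. In A375, limma called 0 members, against 5.86% of all genes higher, 6.86% lower and 12.7% called, and 2 had an unadjusted p under 0.05. Without the 3 DMSO arrays, the number called was 3 in SKMEL5 and 1 in A375. The count of 5 in WM2664 was 3 without either of its own DMSO arrays of 6 h and 8 without either A375 DMSO array of 24 h, and that of 0 in A375 was 1 without any of 6 DMSO arrays of other groups (WM2664 at 6 h, SKMEL5 and A375 at 24 h).

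YARS2, the mitochondrial tyrosyl-tRNA synthetase, was higher at 6 h in SKMEL5 and WM2664. It read 446 with A-485, against 295 and 278 with DMSO, in SKMEL5, and 290 with A-485, against 223 and 219 with DMSO, in WM2664. In A375 YARS2 read 929 with A-485, against 902 and 889 with DMSO. The A-485 array was above both DMSO arrays in each line, and the differences were 0.64 ± 0.07 in SKMEL5 (adjusted p = 0.000645), 0.39 ± 0.07 in WM2664 (adjusted p = 0.00436) and 0.05 in A375. At 24 h YARS2 read 285 in SKMEL5 and 247 in WM2664 with A-485, against 253 and 246 in SKMEL5 and 176 and 187 in WM2664 with DMSO. In A375 at 24 h the order was the opposite, with 735 with A-485, against 884 and 823 with DMSO.

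NARS2 was already lower at 6 h in SKMEL5, at 616 with A-485, against 964 and 1048 with DMSO (-0.71 ± 0.07, adjusted p = 0.000515). It read 621 with A-485, against 710 and 735 with DMSO, in WM2664, and 637 with A-485, against 595 and 579 with DMSO, in A375. The A-485 array was below both DMSO arrays in SKMEL5 and WM2664 and above both in A375.

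WARS2, the mitochondrial tryptophanyl-tRNA synthetase, had the largest mean increase at 6 h, 0.45 ± 0.09 (adjusted p = 0.0072). It read 275 with A-485, against 213 and 221 with DMSO, in SKMEL5, and 393 with A-485, against 294 and 216 with DMSO, in WM2664. In A375 it read 372 with A-485, against 289 and 286 with DMSO, so that the A-485 array was highest in each line. Averaged over the lines at 6 h, 5 cytosolic members (CARS1, GARS1, HARS1, RARS1 and SARS1) were higher and none was lower, against 21.9% of all genes higher, 15.2% lower and 37.1% called. Of the mitochondrial members, FARS2, RARS2, WARS2 and YARS2 were higher and NARS2 was lower, which is 33.3% called against the same 37.1% of all genes. Without the SKMEL5 A-485 array of 6 h the NARS2 mean was -0.05 (adjusted p = 0.528) and the FARS2 mean 0.12 (adjusted p = 0.218), and without the WM2664 one the WARS2 mean was 0.36 (adjusted p = 0.0559). The RARS2 call was lost in most cases where 1 array was left out, and the mean of its probe sets gave -0.03. The cytosolic increases at 6 h were small, from 0.15 ± 0.04 for SARS1 to 0.23 ± 0.07 for CARS1. The SARS1 direction depended on the probe set: a dimmer set gave -0.107 in the 6 h mean. The mean of the SARS1 sets was 0.02 and not called (adjusted p = 0.861). The count of 5 cytosolic members was 2 or 3 when any of 8 arrays of the 6 h groups was left out, all of them except the A375 A-485 array.

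GARS1 at 6 h read 6216 with A-485, against 5598 and 5586 with DMSO, in SKMEL5, 4120 with A-485, against 3700 and 3535 with DMSO, in WM2664, and 3521 with A-485, against 2966 and 2917 with DMSO, in A375. HARS1 read 1089 with A-485, against 961 and 944 with DMSO, in SKMEL5, 908 with A-485, against 764 and 765 with DMSO, in WM2664, and 2204 with A-485, against 1974 and 2049 with DMSO, in A375. RARS1 read 1793 with A-485, against 1511 and 1593 with DMSO, in SKMEL5, 1353 with A-485, against 1063 and 1104 with DMSO, in WM2664, and 3162 with A-485, against 3068 and 3063 with DMSO, in A375. Each of these 3 genes was above both DMSO arrays in every line at 6 h, as 46.3%, 46.9% and 46.2% of all genes were in SKMEL5, WM2664 and A375 taken singly, with mean differences of 0.20 ± 0.06, 0.19 ± 0.04 and 0.19 ± 0.03 (adjusted p = 0.0304, 0.00546 and 0.00203). The GARS1 call at 6 h was lost without any of the 3 A-485 arrays of that time (0.17 to 0.22, adjusted p = 0.051 to 0.11). Among the mitochondrial members, FARS2 read 387 with A-485, against 318 and 283 with DMSO, in SKMEL5, 243 with A-485, against 217 and 237 with DMSO, in WM2664, and 288 with A-485, against 256 and 270 with DMSO, in A375. RARS2 read 710 with A-485, against 626 and 686 with DMSO, in SKMEL5, 1040 with A-485, against 854 and 894 with DMSO, in WM2664, and 645 with A-485, against 595 and 589 with DMSO, in A375. Both were above their DMSO arrays in every line at 6 h, and FARS2 was below them in every line at 24 h. A dimmer FARS2 probe set gave the opposite sign in SKMEL5 at 6 h (-0.115) and in WM2664 at 24 h (0.177), and the same sign in the other lines. The mean of the 3 FARS2 sets, of which 1 lay at the floor on every array, was not called in the 6 h mean (0.073, adjusted p = 0.163).

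CARS1, the cysteinyl-tRNA synthetase, was higher at 6 h (0.23 ± 0.07) and lower at 24 h (-0.20 ± 0.07) with A-485 in the mean over the lines. In SKMEL5 it read 3863 at 6 h and 3544 at 24 h with A-485, against 3535 and 3511 at 6 h and 5277 and 4841 at 24 h with DMSO. In WM2664 it read 2840 at 6 h and 2526 at 24 h with A-485, against 2180 and 2087 at 6 h and 2993 and 2914 at 24 h with DMSO. In A375 it read 2657 at 6 h and 3171 at 24 h with A-485, against 2396 and 2411 at 6 h and 2603 and 3248 at 24 h with DMSO. The DMSO arrays were higher at 24 h than at 6 h in all 3 lines. The 24 h mean was -0.05 (adjusted p = 0.731) without the SKMEL5 A-485 array, and the 6 h mean was 0.14 (adjusted p = 0.292) without the WM2664 A-485 array. Both calls were also lost without the 3 DMSO arrays (adjusted p = 0.167 and 0.162). The other 2 bright CARS1 probe sets had larger differences in SKMEL5 at 24 h, -1.18 and -1.21, than the -0.51 of the brightest.

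The change of the mean response with time was tested in the same fit. The A-485 minus DMSO difference was lower at 24 h than at 6 h for 10 cytosolic and 3 mitochondrial members and higher for IARS2, against 11.1% of all genes lower, 9.61% higher and 20.7% called. On the brightest probe sets AARS1 had the largest change, -0.66 ± 0.08 (adjusted p = 0.00128), followed by YARS1 with -0.47, FARS2 with -0.46 and NARS2 with -0.44. Without the SKMEL5 A-485 array of 24 h the NARS2 change was -0.01 (adjusted p = 0.966), the YARS1 change -0.30 (adjusted p = 0.111) and the IARS2 change 0.21 (adjusted p = 0.0787), and without the WM2664 A-485 array of 24 h the YARS1 change was -0.30 (adjusted p = 0.0984). The AARS1 and FARS2 changes were called in each of these cases. Without the 3 DMSO arrays, CARS1, GARS1, IARS1, IARS2, LARS1, NARS1, WARS1 and YARS1 were among those no longer called. Not every member called there was among the 14. The count of 14 was 6 without the SKMEL5 A-485 array of 24 h and 8 without the WM2664 A-485 array of 24 h.

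Both sides of that difference moved between the times, as a comparison of the DMSO arrays showed that was added after the values had been seen. It shares its DMSO arrays with the A-485 comparisons. In DMSO, 8 members were higher at 24 h than at 6 h over the lines and 2 were lower, against 6.98% of all genes higher, 7.17% lower and 14.1% called. AARS1 was the member with the largest DMSO difference on the brightest probe sets, 0.72 ± 0.04 (adjusted p = 0.00126), and it was called in every line. In SKMEL5, 7 members were higher and none was lower, against 4.27% of all genes higher, 4.12% lower and 8.39% called. In WM2664, AARS1 was higher and 1 member was lower, against 1.14% higher, 1.07% lower and 2.21% called. In A375, AARS1 was the member called, against 1.47% higher, 1.27% lower and 2.75% called. With A-485, AARS1 read 719 at 6 h and 678 at 24 h in SKMEL5, against 744 and 761 at 6 h and 1394 and 1306 at 24 h with DMSO. In WM2664 it read 675 at 6 h and 605 at 24 h with A-485, against 801 and 858 at 6 h and 1381 and 1300 at 24 h with DMSO. In A375 it read 1132 at 6 h and 1521 at 24 h with A-485, against 944 and 981 at 6 h and 1386 and 1605 at 24 h with DMSO. The DMSO arrays of all 3 lines and the A-485 arrays of A375 were higher at 24 h, and the A-485 arrays of SKMEL5 and WM2664 were not. CARS1, GARS1, SARS1 and WARS1 also had higher DMSO levels at 24 h, by 0.37 to 0.42. Fewer members than these 10 were called without the 3 DMSO arrays.

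**Figure D3:**
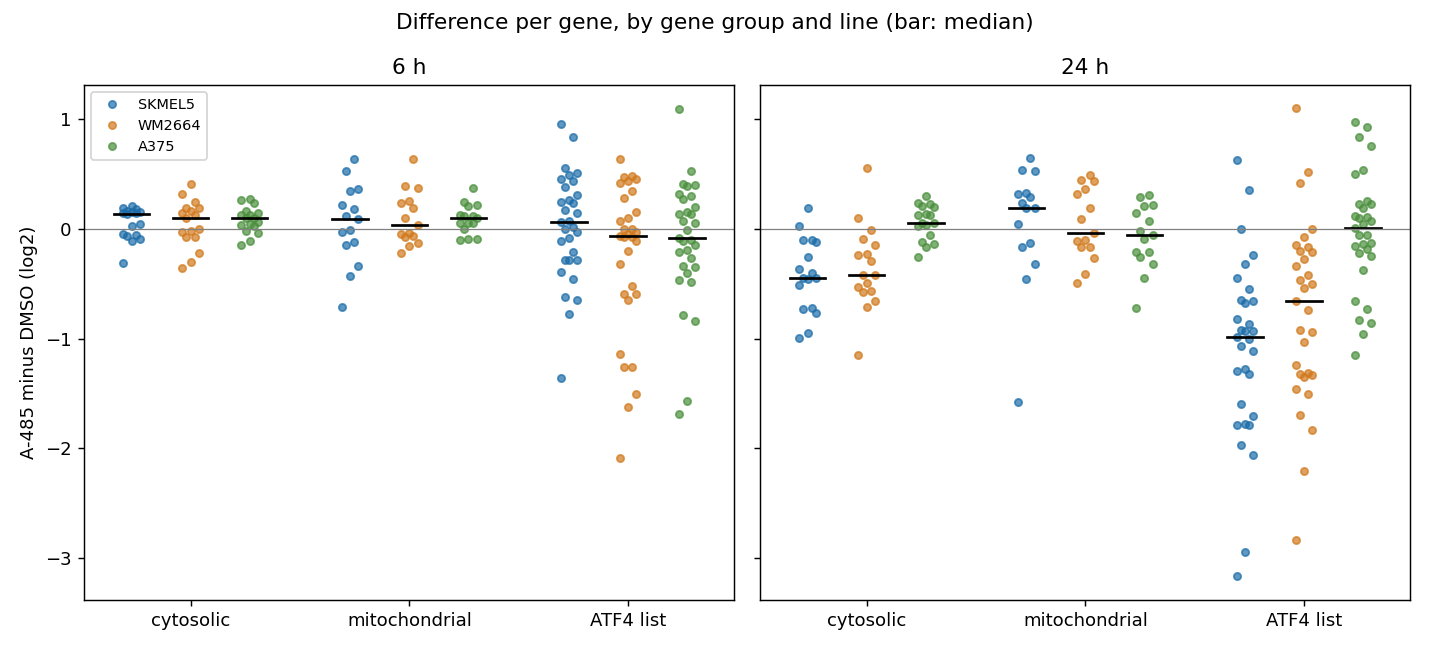
Median A-485 minus DMSO difference (log2) of the cytosolic and mitochondrial members and of the amino acid response list in each line and time, with each gene as a point. The cytosolic medians at 24 h are -0.44 in SKMEL5, -0.42 in WM2664 and 0.06 in A375.

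Whether the response of A375 differed from the mean response of SKMEL5 and WM2664 was tested as an interaction. At 24 h the difference was positive, that is less negative or more positive in A375, for 11 cytosolic members and NARS2, and negative for HARS1 and YARS2. Of all genes 12.1% were called in each direction and 24.3% in either. The sizes were 1.10 ± 0.12 for AARS1 (adjusted p = 0.000546), 1.02 ± 0.14 for YARS1 (adjusted p = 0.00223), 0.98 ± 0.08 for NARS2 (adjusted p = 0.000213) and 0.89 ± 0.14 for WARS1 (adjusted p = 0.00396). YARS2 had -0.53 ± 0.08 (adjusted p = 0.00293) and HARS1 -0.32 ± 0.08 (adjusted p = 0.0234). The HARS1 value was -0.13 without the WM2664 A-485 array (adjusted p = 0.365). The median over the cytosolic members was 0.53, that over the mitochondrial members -0.21 and that over all genes -0.02. Without the 3 DMSO arrays 7 of the 14 members were called.

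At 6 h the same test called NARS2 (0.58 ± 0.08, adjusted p = 0.00462) and YARS2 (-0.46 ± 0.08, adjusted p = 0.01), against 5.60% of all genes higher, 6.32% lower and 11.9% called. Of the cytosolic members limma called 0, and 2 had an unadjusted p under 0.05. Neither NARS2 nor YARS2 was called without the 3 DMSO arrays, and neither was called without the SKMEL5 A-485 array of 6 h (0.34 and -0.34, adjusted p = 0.0722 and 0.0621). A375 also had the lower melanocyte and fibroblast and the higher epithelial marker sums given above, and the part of this in the line difference was not tested.

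In DMSO the lines differed in most synthetase transcripts, as they did in most genes. Levels are compared here between lines for 1 probe set at a time, since intensities of different probe sets cannot be set against each other. A375 differed from the mean of SKMEL5 and WM2664 in 27 of the 32 members, 16 higher and 11 lower, against 37.7% of all genes higher, 32.9% lower and 70.7% called. The cytosolic (9 higher, 6 lower) and mitochondrial members (7 higher, 5 lower) were alike in having both directions. The members higher in A375 by the most were FARSA, the alpha subunit of phenylalanyl-tRNA synthetase, by 2.07 ± 0.07 (adjusted p = 7.68e-08), YARS2 by 1.92 ± 0.03 (adjusted p = 2.03e-09), HARS1 by 1.35 ± 0.03 and RARS1, the arginyl-tRNA synthetase, by 1.29 ± 0.03.

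FARSA ranged from 1216 to 1565 on the 4 DMSO arrays of A375, against 299 to 379 in SKMEL5 and 316 to 348 in WM2664. Those of A375 did not overlap with the others, and those of SKMEL5 and WM2664 overlapped. FARSB, which encodes the partner subunit, had a difference of 0.03 ± 0.09. HARS1 was 1974 to 2152 in A375, against 877 to 961 in SKMEL5 and 616 to 765 in WM2664. RARS1 was 2868 to 3068 in A375, against 1375 to 1593 in SKMEL5 and 916 to 1104 in WM2664. YARS2 was 823 to 902 in A375, against 246 to 295 in SKMEL5 and 176 to 223 in WM2664. For HARS1, RARS1 and YARS2 the order was A375, SKMEL5 and WM2664 with no overlap. Overlaps here and below describe members picked for a large difference and are not a result about the group. The share of all genes without overlap was not counted, and 70.7% of all genes were called between A375 and the other lines.

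The members lower in A375 by the most were WARS1 (-1.71 ± 0.06, adjusted p = 8.44e-08), GARS1 (-0.67 ± 0.05), SARS1 (-0.62 ± 0.04) and NARS2 (-0.54 ± 0.03). WARS1 was 615 to 852 in A375, against 2964 to 4226 in SKMEL5 and 1259 to 1714 in WM2664, so that the 3 lines did not overlap. GARS1 was 2917 to 4052 in A375, against 5586 to 7768 in SKMEL5 and 3535 to 4781 in WM2664. With both times pooled, only SKMEL5 stood apart from the others. Within each time A375 and WM2664 did not overlap either. At 6 h GARS1 read 2966 and 2917 in A375, against 3700 and 3535 in WM2664. At 24 h it read 3332 and 4052 in A375, against 4781 and 4714 in WM2664. NARS2 was 579 to 639 in A375, against 964 to 1214 in SKMEL5 and 666 to 735 in WM2664, again with no overlap. SARS1, the seryl-tRNA synthetase, was 1376 to 1727 in A375, against 1582 to 2568 in SKMEL5 and 2460 to 3128 in WM2664. Each line overlapped with the next when both times were pooled, but not within either time. At 6 h SARS1 read 1376 and 1417 in A375, 1582 and 1585 in SKMEL5, and 2460 and 2504 in WM2664. At 24 h it read 1573 and 1727 in A375, 2568 and 2416 in SKMEL5, and 3128 and 2921 in WM2664.

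SKMEL5 differed from WM2664 in 25 members, 17 higher and 8 lower, against 31.6% of all genes higher, 28.6% lower and 60.2% called. TARS1, the threonyl-tRNA synthetase, was higher in SKMEL5 by 1.32 ± 0.05 (adjusted p = 4.58e-07) and WARS1 by 1.26 ± 0.07 (adjusted p = 1.84e-06). TARS1 was 3429 to 4473 in SKMEL5, against 1483 to 1852 in WM2664. HARS2 and VARS2 led the mitochondrial members higher in SKMEL5, with 1.01 ± 0.08 and 0.90 ± 0.10. HARS2 was 605 to 777 in SKMEL5, against 328 to 388 in WM2664, and VARS2 was 650 to 900, against 402 to 461. CARS2 was lower in SKMEL5 by the most, -1.55 ± 0.05, with 182 to 193 in SKMEL5, against 503 to 580 in WM2664. A dimmer CARS2 probe set gave 0.67, the opposite sign. EPRS1 was lower in SKMEL5 (-0.64 ± 0.07), with 1400 to 1666, against 2147 to 2810 in WM2664, and its other 2 probe sets gave -0.72 and -0.69. IARS2 was lower in SKMEL5 as well (-0.46), with 2571 to 3037, against 3563 to 4092. SARS1 was lower by -0.46 on the brightest probe set and differed by 0.99 on its other one, so that its order between these lines depended on the probe set.

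**Figure D4:**
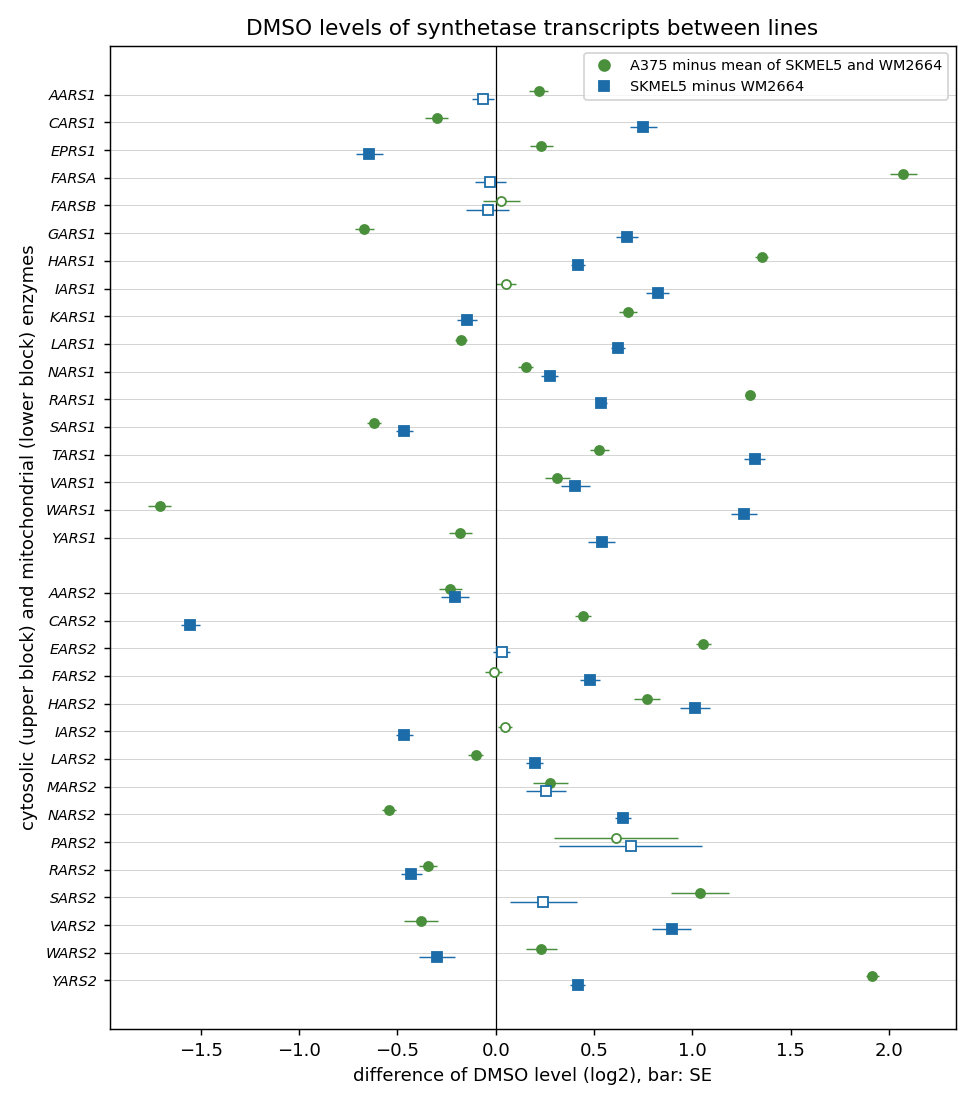
Difference of DMSO level (log2, bar: SE) between lines for each synthetase transcript, both times pooled: A375 minus the mean of SKMEL5 and WM2664 (circles), and SKMEL5 minus WM2664 (squares); filled points passed the test. Points lie on both sides of 0 in both classes, with FARSA and YARS2 farthest to the right and WARS1 farthest to the left for A375.

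Other genes of the same pathways were taken from lists chosen with earlier results of these data known. The amino acid response list held 31 genes, ATF4 and genes known to respond to it or to amino acid shortage, none of them a synthetase. At 24 h with A-485, 23 of the 31 were lower and 1 higher in SKMEL5, 16 lower and 1 higher in WM2664, and 3 lower and 0 higher in A375. Of all genes 15.1%, 14.6% and 8.39% were lower and 20.1%, 17.6% and 9.05% higher in these lines, so the A375 count was near background. The A375 DMSO arrays of 24 h were apart at some list genes, which limits that count. They read 875 and 1809 for ASNS and 3384 and 4724 for PSAT1, but 1906 and 1931 for EIF4EBP1. Their medians were -0.99 in SKMEL5, -0.66 in WM2664 and 0.01 in A375, beside -0.44, -0.42 and 0.06 for the cytosolic synthetases. In the test of A375 against the other lines at 24 h, 18 were positive and 1 was negative, against 12.1% of all genes in each direction. The DMSO comparison of 24 h with 6 h had 18 higher and 1 lower, against 6.98% and 7.17% of all genes.

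The list's largest mean decreases at 24 h among called genes were those of SLC7A5 and SLC3A2, the chains of the LAT1 amino acid transporter, of CHAC1, which degrades glutathione, and of SLC1A5, a glutamine transporter. SLC7A5 read 368 with A-485, against 3248 and 2472 with DMSO, in SKMEL5 at 24 h. It read 341.6 with A-485, against 2473 and 2416 with DMSO, in WM2664, and 3471 with A-485, against 5568 and 5953 with DMSO, in A375. SLC7A5 was thus below both DMSO arrays in all 3 lines, by -2.94, -2.84 and -0.73. SLC3A2 differed by -1.79 in SKMEL5, -1.69 in WM2664 and -0.96 in A375, and SLC1A5 by -2.06, -1.83 and -0.14. CHAC1 differed by -3.17, -2.21 and 0.93, of which the A375 value was not called and the others are not exact, since its A-485 arrays in SKMEL5 (66.9) and WM2664 (32.7) lay near the floor. ATF4 itself read 4467 with A-485, against 6543 and 7510 with DMSO, in SKMEL5, 3743 with A-485, against 5088 and 4903 with DMSO, in WM2664, and 5119 with A-485, against 4566 and 5178 with DMSO, in A375. The ATF4 array with A-485 lay below both DMSO arrays in SKMEL5 and WM2664 and between them in A375.

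Of 11 aminoacylation and tRNA genes outside the symbol rule, 10 were tested, and the mean over the lines at 24 h had 4 higher and 1 lower, near the 26.0% and 20.5% of all genes. PSTK and SEPSECS, which make selenocysteinyl-tRNA, were higher by 0.86 and 0.33, DTD1, which removes D-amino acids from tRNA, by 0.25, and MTFMT, which formylates the mitochondrial initiator tRNA, by 0.22. XPOT, the tRNA exporter, was lower by -0.39, with -0.49 in SKMEL5, -0.77 in WM2664 and 0.09 in A375, and it differed between A375 and the other lines by 0.71. Of 10 mitochondrial translation factors 9 were tested, with 6 higher and 0 lower at 6 h and 2 higher and 1 lower at 24 h over the lines, against 21.9% and 15.2% of all genes at 6 h and 26.0% and 20.5% at 24 h. Of 8 cytosolic elongation factors 5 were tested, and their median difference at 24 h lay between 0.00 and 0.01 in the 3 lines. Of the 3 scaffold genes of the multisynthetase complex, AIMP1 was tested, with -0.02 over the lines at 24 h, which was not called. Of 4 listed genes, MYC and its partners, 1 was higher and 1 lower over the lines at 24 h. Of 6 tested interferon gamma genes, 0 were higher and 2 lower, against the same 26.0% and 20.5%. MYC read 458 with A-485, against 2343 and 2385 with DMSO, in SKMEL5 at 24 h. It read 199 with A-485, against 2105 and 2109 with DMSO, in WM2664, and 149 with A-485, against 488 and 564 with DMSO, in A375. Whether MYC had a part in the synthetase differences was not tested.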

How the data were processed

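The authors deposited 1 table of linear intensities for 18 Affymetrix arrays. Their software and normalization are not given in the sources, and 19.3% to 22.9% of an array's values were below 0. RNA was extracted with Qiazol and RNeasy and labelled with a 3′ IVT kit, per the labels' protocols. Intensities were quantile normalized on the linear scale, floored at 32 and put on a log2 scale, which hides any shift common to most genes. Symbols came from the platform annotation, updated by Entrez identifier (41037 of 41091 probe sets). The brightest probe set with 1 symbol stood for each gene, and 5645 genes below a mean log2 of 5.007 (the 40th percentile of all probe sets) were dropped. The 32 members had 67 probe sets.

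A group-means model over 12 groups of line, treatment and time, taken from the titles, was fitted with limma 3.58.1 in R 4.3.3, with 6 residual degrees of freedom, all from DMSO pairs, and 1.22 from moderation. Adjusted p-values are Benjamini-Hochberg over 14130 genes within a contrast. The median SE was 0.13 for 1 line and time, 0.08 for a mean over lines and 0.16 for A375 against the others. The fit was also run on simulated data that gave A-485 and DMSO arrays the same spread. That run cannot show whether the single A-485 arrays vary like the DMSO pairs. Members, lists and tests were chosen with earlier results of these data known. Members described array by array were the called ones with the largest differences per class, time and contrast (at most 4 per direction), with GARS1, KARS1, EPRS1 and WARS1. Alternatives changed the scaling, the floor, the filter, the probe set, the arrays, the block and the model. The correlations of replicate differences between DMSO groups ran from -0.036 to 0.06, so replicate numbers marked no effect shared between those groups. They cannot show whether an A-485 array was run with the DMSO array of the same number.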

Additional observations from a re-analysis of the deposited data

Results flagged for a closer look

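The response to A-485 differed between A375 and the mean of SKMEL5 and WM2664, by the interaction test in limma, for 16 values. At 24 h the A375 response was above that of the other lines for AARS1 (1.10), YARS1 (1.02), NARS2 (0.98), WARS1 (0.89), GARS1 (0.71), IARS1 (0.57), LARS1 (0.55), TARS1 (0.55), VARS1 (0.53), NARS1 (0.50), CARS1 (0.49) and SARS1 (0.47), in log2 units. It was below for YARS2 (-0.53) and HARS1 (-0.32). At 6 h NARS2 (0.58) was above and YARS2 (-0.46) below. Without the 3 DMSO arrays that stood apart, CARS1, GARS1, HARS1, IARS1, NARS1, TARS1 and VARS1 at 24 h and both genes at 6 h were no longer called. Each line contributed 1 A-485 array per time.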

How the results depend on the processing

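Counts of called members moved by over 1.5 times under these settings. Left unscaled with a floor of 1, the 5 cytosolic and 5 mitochondrial members of the 6 h mean became 0 and 3, the 13 and 7 of the 24 h mean 1 and 1, the 5 of SKMEL5 and 5 of WM2664 at 6 h 0 and 0, the 17 and 17 at 24 h 1 and 0, the 2 of A375 at 24 h 0, the 2 and 14 of A375 against the others 0 and 0, the 14 of the change with time 0, the 25 of SKMEL5 against WM2664 in DMSO 16 and the 10 of DMSO at 24 h against 6 h 0. Unscaled with a floor of 32 they were 3 (cytosolic, 6 h mean), 2 and 1 (24 h mean), 0 and 2 (SKMEL5 and WM2664, 6 h), 3 and 0 (24 h), 0 (A375, 24 h), 0 and 0 (A375 against the others), 1 (change with time) and 0 (DMSO times). Without scaling and with that floor, the median of all genes shifted by 0.233 in the 6 h mean and 0.176 in WM2664 at 24 h, where the cytosolic median was -0.11. Scaling to the 75th percentile gave 2 (cytosolic, 6 h mean), 3 (WM2664, 6 h) and 8 (change with time). A floor of 16 gave 3 and 3 (SKMEL5 and WM2664, 6 h) and 9 (change with time). A floor of 64 and no filter each gave 3 cytosolic members in the 6 h mean, and the mean of the probe sets gave 3 mitochondrial ones. Without probe sets of possible cross-hybridisation, which leaves 11 of the 17 cytosolic members, 8 cytosolic members were called in the 24 h mean, 11 members in WM2664 and 9 for A375 against the others. The additive fit, whose residuals hold the differences between lines, gave 1 mitochondrial (6 h) and 1 cytosolic (24 h) member. With the replicate block, WM2664 at 6 h had 3 members in place of 5, and no other count moved by over 1.5 times. Without the 3 DMSO arrays that stood apart, none of them from SKMEL5, the counts were 3 and 3 (6 h mean), 3 (SKMEL5, 6 h), 1 (A375, 6 h), 10 (SKMEL5, 24 h), 7 (WM2664, 24 h), 0 and 7 (A375 against the others), 7 (change with time) and 4 (DMSO times).

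Leaving out 1 array at a time gave 2 to 6 cytosolic and 2 to 5 mitochondrial members for the 6 h mean, and 4 to 13 and 6 to 9 for the 24 h mean. It gave 4 to 6 (SKMEL5), 3 to 8 (WM2664) and 0 to 1 (A375) at 6 h, and 15 to 20, 13 to 18 and 2 to 8 at 24 h. It gave 1 to 3 and 12 to 15 for A375 against the others at 6 h and 24 h, 6 to 17 for the change with time, 23 to 27 and 22 to 25 for the DMSO lines, and 7 to 10 for the DMSO times. The 8 of WM2664 at 6 h came without either A375 DMSO array of 24 h, and the mitochondrial count of the 6 h mean was 2 without the SKMEL5 and 3 without the WM2664 A-485 array of that time.

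Signs turned in few cases. Unscaled, at either floor, these were CARS1 (0.010), LARS1 (0.15), LARS2 (0.17) and YARS1 (0.15) for A375 in DMSO, KARS1 for SKMEL5 in DMSO (0.007), EARS2 (0.063) and SARS1 (0.005) in WM2664 at 24 h, and NARS2 in the 6 h mean (0.029). With the mean of the probe sets they were LARS1 (0.017) and YARS1 (0.10) for A375 in DMSO, RARS2 in the 6 h mean (-0.025) and SARS1 for SKMEL5 in DMSO (0.26). Others were YARS1 for A375 in DMSO without cross-hybridising probe sets (0.39), KARS1 in the 6 h mean scaled to the 75th percentile (-0.12), and YARS2 in the 24 h mean without the WM2664 A-485 array (-0.011, in a range up to 0.319 without that of A375). Except for the additive fit, the cause was not tested. Signal near the floor limits PARS2.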
